A study of Mus musculus with 10 samples.

Results

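Kidney cortex taken at day 7 after an injury was compared with cortex of normal kidneys, all from mice aged 4 weeks. Single-cell RNA libraries were made by Drop-seq, which captures each cell in a droplet with a barcoded bead and counts its transcripts by unique molecular identifiers (UMIs). The comparison used 1 control library and 2 day 7 libraries, here called replicates 1 and 2. Its members were all barcodes of these libraries with at least 500 genes and at most 50% of UMIs from mitochondrial (mt-) genes. These were 6134 control, 3621 day 7 replicate 1 and 5154 day 7 replicate 2 barcodes, in all 14909 of the 52797 kept over the 10 libraries of the series. The series calls the injury acute; the labels name neither how it was made, the strain, the sex, any treatment nor the number of animals behind a library. They do not say that the day 7 libraries came from separate animals, so the p-values below measure the spread between libraries, which may be technical.

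The nephron filters blood at the glomerulus, whose podocytes and fenestrated endothelium form the filter. It then recovers solutes along the proximal tubule, the thick ascending limb, the distal convoluted tubule and the collecting duct. In the duct, principal cells handle water and sodium and intercalated cells handle acid and base. After an acute injury, proximal cells lose transporters and express injury genes, monocytes enter the tissue and become macrophages, and fibroblasts lay down matrix. The sections below take the cells around the tubule first and the distal nephron second.

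Classes were gated in each barcode by counting distinct marker genes with a UMI (for example at least 3 of C1qa, Csf1r, Mpeg1, Emr1, Ms4a7, Fcgr1, Ccr2, Cx3cr1 and Cd300a for a macrophage-like barcode). Barcodes that passed several gates were set aside: 965 in the control, 453 in day 7 replicate 1 and 736 in replicate 2. The libraries differed in depth and in mitochondrial content. The median kept barcode held 2661.5 UMIs in the control, 1244 in day 7 replicate 1 and 1710 in replicate 2, and a median of 23.6%, 3.64% and 4.32% of its UMIs came from mt- genes. The control shared 1 barcode with day 7 replicate 1 and 4 with replicate 2, and the day 7 libraries shared 1 with each other. In every class that was tested the 2 day 7 libraries differed from each other by more than counting noise (chi-square per degree of freedom 2.51 to 8.05). Spread between cells enters this value too, so it does not show whether they are replicates. They were counted as separate libraries because they are titled so.

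Immune cells made up a far larger share of the day 7 libraries. Macrophage-like barcodes were 0.489% of the control (30 of 6134, exact 95% Clopper-Pearson interval 0.33% to 0.697%), 19.8% of day 7 replicate 1 (716 of 3621, 18.5% to 21.1%) and 24.5% of replicate 2 (1263 of 5154, 23.3% to 25.7%). T and NK cell-like barcodes were 0.44%, 2.49% and 6.03% (27, 90 and 311 barcodes). With each barcode thinned to 700 UMIs (6131, 3422 and 5062 barcodes were deep enough), the macrophage-like shares were 0.326%, 15.05% and 18.9% and the T and NK cell-like shares 0.343%, 1.99% and 5.35%. Both day 7 libraries stood above the control in each of these counts.

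Among tubular classes, principal cell-like barcodes were a larger share at day 7 (3.41% in the control, 11.2% and 8.93% at day 7). Thick ascending limb-like barcodes (14.8%, 6.13% and 6.13%), distal convoluted tubule-like barcodes (3.59%, 0.994% and 1.44%) and proximal tubule-like barcodes (50.5%, 10.2% and 10.4%) were smaller shares. Of the kept barcodes 2773 in the control, 6 in day 7 replicate 1 and 58 in replicate 2 had over 25% mitochondrial UMIs. Without them the day 7 mean lay 2.01 percentage points below the control for thick ascending limb-like barcodes, against 8.66 with them. For distal convoluted tubule-like barcodes the day 7 mean lay 2.37 points below over all kept barcodes, 2.17 below without those of over 25% mitochondrial UMIs, and 4.19 to 5.05 below with thinning, 1 marker more or a stricter gate. Tubular barcodes that carried pan-tubular markers but passed no segment gate were 0.228% of the control and 13.8% and 9.003% of the day 7 libraries. Their name rests on the gate alone. The genes that most set them apart from other barcodes held none of the gate's markers in any of these libraries. In day 7 replicate 2 they included Upk3a and Psca. Whether other epithelial cells are among these barcodes was not tested. Intercalated (1.68%, 1.60% and 1.05%), podocyte-like (1.08%, 0.663% and 0.931%), stromal-like (2.48%, 1.63% and 2.87%) and endothelial-like barcodes (4.21%, 3.20% and 5.24%) differed by less, and for the last pair the day 7 libraries lay on both sides of the control. With 2 libraries against 1, an exact permutation test of shares cannot give a 1-sided p below 0.333, so none was run, and the intervals cover counting error only. In shares, fewer cells of 1 type and more cells of another cannot be told apart.

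**Figure D1:**
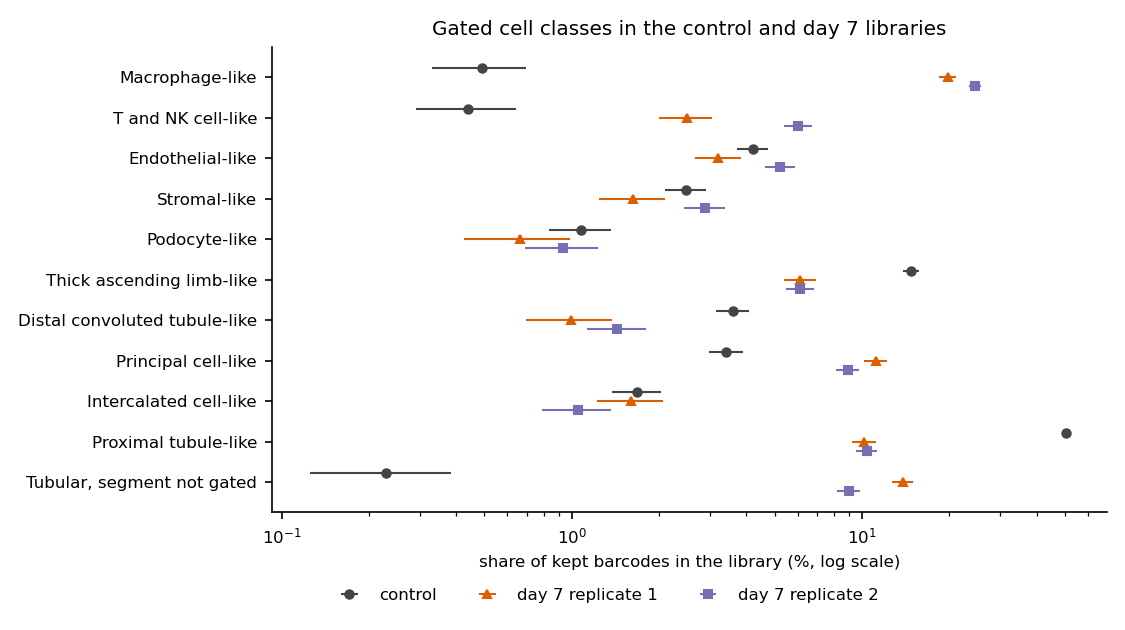
Share of kept barcodes (percent, log scale, horizontal axis) in each gated class (vertical axis) for the control and both day 7 libraries, with exact 95% Clopper-Pearson intervals as bars. Macrophage-like barcodes move from 0.489% in the control to 19.8% and 24.5% at day 7, and the day 7 endothelial-like and stromal-like shares lie on both sides of the control.

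Changes within a class were tested on UMIs summed per library, with edgeR's quasi-likelihood test fitted over all libraries of the series that held at least 15 barcodes of the class and with Benjamini-Hochberg adjustment over all genes tested. The lone control is assumed to vary as the replicated days do. A gene is said to have risen or fallen when its adjusted p was under 0.05 and both day 7 libraries lay on the same side of the control. Levels are CPM, the UMIs of a gene relative to all UMIs of the class, scaled by edgeR's TMM, always in the order control, day 7 replicate 1 and day 7 replicate 2. Levels in the other barcodes and sums over a list carry no TMM scaling. A gene's level in a class therefore compares with its level in the other barcodes only roughly. Changes are log2 changes, day 7 minus control, ± the standard error of the fit. Where a group held no UMI of a gene, the fold is a lower bound computed from 3 counts over that group; where it held 1 to 3, the ratio of pooled levels is given with its counting interval. A stricter gate, chosen after seeing the data, asked for 1 marker more than the minimum and at least 2 more than for any other class, proximal and unsegmented tubule apart; the gates as first set are called the first or original gate. The median log2 change over all genes tested lay between 0.03 and 0.16 in every class under the first gate.

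In droplet libraries, RNA free in the cell suspension can be counted in any barcode, and genes of other cell types were seen to move within the classes. Outside the macrophage-like class, 15 macrophage genes summed to 428 CPM in the control and to 9079 and 5659 CPM at day 7. Those barcodes include ones that passed several gates or none and may hold macrophages, whose part in the sum was not tested. In thick ascending limb-like barcodes the same genes summed to 311, 3936 and 2031 CPM. There 19 proximal tubule genes summed to 28656, 2886 and 2154 CPM. Genes of one class can move in the sums of another. The leading risers and fallers of each class therefore had to stand at least 2 times above all other kept barcodes of the same library. This was asked on the side where they were high. Members of gene lists did not have to meet it. Lists and their members were chosen with earlier results of these data known. Counts and medians of a list therefore describe it and are no independent test.

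Macrophage-like cells at day 7 held far less RNA of the cytokine Il1b and of the chemokines Ccl4 and Cxcl2 than the few control macrophages, and more of Wfdc17, a secreted whey acidic protein-domain gene, of vimentin and of the chemokine Ccl7. Of 3402 genes tested, 77 rose (2.26%) and 146 fell (4.29%), 6.55% in either direction. The balance turned with no filter on low counts, where 111 of 19629 rose and 94 fell, and with the control and day 7 libraries alone. Il1b, the cytokine interleukin-1 beta, stood at 6735 CPM in the control and 332 and 543 CPM at day 7 and fell by 3.94 ± 0.35 on the log2 scale (adjusted p = 1.24e-09). Mmp13, a collagenase, fell by 5.96 ± 0.61 (995, 12.8 and 17.9 CPM, adjusted p = 8.81e-09), and the chemokine Ccl4 by 2.57 ± 0.35 (3749, 575 and 682 CPM, adjusted p = 2.36e-06). The stress-induced transcription factor Atf3 fell by 2.48 (2337, 338 and 495 CPM, adjusted p = 1.49e-05) and the neutrophil chemokine Cxcl2 by 2.42 (1620.01, 212 and 391 CPM, adjusted p = 6.5e-05), although 45.7% of the control's Cxcl2 UMIs came from 1 cell. For all 5 genes both day 7 libraries were far below the control, and replicate 2 was the higher of the 2. The control side rests on 30 barcodes and 54117 UMIs, against 1170810 and 2851280 UMIs at day 7.

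The 5 leading risers had no UMI in the control macrophages. Wfdc17 reached 861 and 1000.2 CPM at day 7, at least 13.8-fold higher (adjusted p = 2.77e-05), with UMIs in 362 and 753 cells. Vim, the intermediate filament vimentin, reached 704 and 1130.03 CPM (at least 14.4-fold, adjusted p = 1.78e-05), and the monocyte chemokine Ccl7 362 and 530.5 CPM (at least 6.91-fold, adjusted p = 0.000135). These 3 rose in every alternative tested. Ccl8, a related chemokine, was far higher in replicate 2 than in replicate 1 (183 and 922 CPM, at least 10.1-fold, adjusted p = 0.00602), and the fatty acid-binding protein Fabp5 stood at 392 and 318 CPM (at least 4.9-fold, adjusted p = 0.01). Those 2 calls were lost with DESeq2 and with stricter gates (adjusted p up to 0.171 for Ccl8 and 0.106 for Fabp5 over the alternatives).

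Genes of resident and repair macrophages leaned upward: of 26 measured members of a list of 32, 9 rose and none fell, with a median log2 change of 1.64 (1.07 with genes at 0 set to their bound) against 0.16 over all genes tested. The lysosomal protease Ctsd had 1 UMI in the control and stood at 23.1, 2629 and 2665 CPM, a ratio of 115 (95% counting interval 20.6 to 4531), adjusted p = 1.04e-06. The transmembrane glycoprotein Gpnmb went from no UMI to 367 and 235 CPM (at least 3.96-fold, adjusted p = 0.00473). Osteopontin (Spp1) rose from 69.4 to 4579 and 5515 CPM, a ratio of 75.4 (95% counting interval 25.8 to 365), adjusted p = 6.03e-05. It was still higher in the other barcodes of these libraries (622, 8601 and 11772 CPM), and the part of free RNA in its change was not tested. The complement genes C1qb (2314, 2058 and 3561 CPM, 0.28 ± 0.37, adjusted p = 0.747) and C1qc (1227, 1540.1 and 2140.2 CPM, 0.59 ± 0.38, adjusted p = 0.402) did not pass the test. In the monocyte list 4 of 11 measured members (21 listed) rose and 1 fell. Lysozyme (Lyz2) went from 1944 to 20508 and 26523 CPM (3.60 ± 0.45, adjusted p = 7.78e-07). Fibronectin (Fn1) rose from no UMI to 134 and 314 CPM (at least 3.74-fold, adjusted p = 0.0256), and the chemokine Ccl9 rose from 69.4 to 276 and 577 CPM, a ratio of 7 (95% counting interval 2.39 to 34), adjusted p = 0.0379. Among the gate's own markers, which were used to choose the cells and are not tested, Ccr2 was detected in 36.7%, 67.5% and 70.0% of the class and Cx3cr1 in 76.7%, 58.9% and 67.8%. In all other barcodes Ccr2 was detected in 0.311%, 15.4% and 16.3% and Cx3cr1 in 0.311%, 7.09% and 7.25%. These other barcodes include T cell-like barcodes and those that passed several gates or none. A changed mix of macrophage subtypes and a change within them cannot be told apart.

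Other lists divided the class further. Of 20 measured inflammatory genes (25 listed) 5 rose and 5 fell, the fallers being led by Il1b (median -0.49). MHC class II genes, which present antigen, gave no call in either direction among 7 measured. Cd74 stood at 8239, 3639 and 7887 CPM (-0.52 ± 0.38, adjusted p = 0.465) and H2-Ab1 at 8539.8, 3022 and 6869.5 CPM (-0.79 ± 0.38, adjusted p = 0.24), with replicate 2 close to the control and replicate 1 lower. Of 25 immediate early and heat shock genes 8 fell and none rose, among them the chaperone Hspa1a (255, 25.7 and 27.8 CPM, -3.23 ± 0.68, adjusted p = 0.00178). No cell cycle gene was called among 11 measured, Top2a standing at 602, 317 and 178 CPM (-1.29 ± 0.46, adjusted p = 0.101) and Mki67 at 347, 284 and 135 CPM. The stricter gate called 31 of 2709 genes higher (1.14%) and 36 lower (1.33%). Of 183 calls of the first gate tested there, 54 were called on the same side, and the 5 fallers named above were among them. There 2 of 24 immediate early and heat shock genes fell and none rose, and 6 of 23 resident and repair genes rose and 1 fell.

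T and NK cell-like barcodes gave few calls: of 1761 genes tested, 12 rose (0.681%) and 31 fell (1.76%), 2.44% in either direction. The control held 27 such barcodes, and 237 genes had an unadjusted p under 0.05. The fit left 1 residual degree of freedom, against 3 in the other classes. Day 7 was the only day with more than 1 library in it, so all the spread came from that pair. Ncr1, the NK receptor NKp46, was counted with the gate's own markers, which chose the cells, and is not tested. It stood at 517 CPM in the control and 63 and 58.3 CPM at day 7. Perforin (Prf1) fell by 3.06 ± 0.63 (603, 75.7 and 68.9 CPM, adjusted p = 0.0197). The chemokine Ccl4 fell by 1.87 ± 0.43 (2152, 429 and 707 CPM, adjusted p = 0.0283), and Ms4a4b, a membrane protein of T cells, by 3.44 ± 0.47 (1248, 113 and 114 CPM, adjusted p = 0.000477). Among 22 measured members of the 36-gene activation list, which holds Ncr1 too, Prf1 and Ccl4 were called lower and none rose. The most abundant member, the chemokine Ccl5, stood at 7921, 5548 and 6017 CPM and did not pass (-0.45 ± 0.40, adjusted p = 0.679). Cd3d, Cd3e and Cd3g, the T cell receptor complex, also belong to the gate, so their shares follow in part from it and are not tested. A UMI of any of them was found in 66.7%, 76.7% and 87.1% of the class, against 0.262%, 2.32% and 1.94% of all other barcodes. A UMI of Ncr1 was found in 22.2%, 3.33% and 4.18% of the class, against at most 0.165% of all other barcodes. Fewer NK cells and less RNA of these genes per cell cannot be told apart. Erythroid genes summed to 177, 2179.9 and 2973 CPM inside the class, and their part in these changes was not tested.

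The single riser named by the rule was the histone gene Hist1h2ap (172, 908 and 1661 CPM, 2.92 ± 0.71, adjusted p = 0.0376), whose control value came from 4 UMIs in 2 cells, and none of 11 measured cell cycle genes was called. Btg2, an antiproliferative early response gene, fell by 2.33 ± 0.48 (861, 177 and 167 CPM, adjusted p = 0.0197). The immunoglobulin genes Igha, Igj and Igkc were also called lower, but every control UMI of each came from 1 cell. These calls are fragile: with 1 marker more per gate edgeR called 0 genes (246 at an unadjusted p under 0.05), DESeq2 called 8 under the original gate, and adjusted p reached 1 over the alternatives for Ms4a4b, Btg2 and Hist1h2ap. Hist1h2ap also lost its call without replicate 1 of day 14 (adjusted p = 0.0502).

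Endothelial-like cells at day 7 held more RNA of Lrg1 and Aplnr, both known from growing vessels, and less of Calca and Sost. Of 7884 genes tested, 145 rose (1.84%) and 193 fell (2.45%). The stricter gate called 1.62% higher and 2.5% lower, 4.12% in either direction. Of 20 measured activation and angiogenesis genes (28 listed) 4 rose and 1 fell. Lrg1, a secreted glycoprotein that promotes angiogenesis, had no UMI in the control and reached 43.6 and 186 CPM, at least 19.6-fold higher (adjusted p = 1.43e-07). It stood, under the stricter gate, at 7.93, 30.5 and 159 CPM (3.74 ± 0.66, adjusted p = 0.000171). Aplnr, the apelin receptor, rose from 9.92 to 37.4 and 65.2 CPM (2.45 ± 0.70, adjusted p = 0.0246) and was near absent from all other barcodes (0.172, 1.44 and 0.691 CPM). The adhesion molecule Vcam1 (24.8, 162 and 164 CPM, 2.70 ± 0.46, adjusted p = 1.92e-05) and the chemokine Ccl2 (no UMI, then 131 and 104 CPM, at least 15-fold) also rose. Both were higher still in the other day 7 barcodes (2.17, 310.3 and 244 CPM for Vcam1 and 0.517, 349 and 409 CPM for Ccl2). The Vcam1 call was lost under the stricter gate (1.07 ± 0.42, adjusted p = 0.177). Macrophage genes summed to 397, 4865 and 2139 CPM and erythroid genes to 188, 1767 and 6999.9 CPM inside this class, Hba-a1, Hbb-bs and Hba-a2 being among its leading genes in replicate 2; their part in these changes was not tested.

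A set of 5 genes led the risers by the naming rule. Egln3, an oxygen-sensing prolyl hydroxylase, stood at 9.92 CPM in the control and 99.8 and 77.2 CPM at day 7 (3.05 ± 0.66, adjusted p = 0.00109). The deubiquitinase Uchl1 (12.4, 93.5 and 86.9 CPM, 2.81 ± 0.67, adjusted p = 0.00413) and the cAMP phosphodiesterase Pde4b (12.4, 93.5 and 62.8 CPM, 2.53 ± 0.65, adjusted p = 0.00926) rose to like levels in both day 7 libraries. The unnamed transcript 8430408G22Rik (22.3, 81.1 and 176 CPM, 2.64 ± 0.52, adjusted p = 0.000253) and Fam174b (17.4, 118 and 96.6 CPM, 2.56 ± 0.59, adjusted p = 0.00245) completed the set. Each of the 5 was seen in 4 to 9 control cells and in 10 to 34 cells of a day 7 library. Each was also called under the stricter gate, but DESeq2 called none of the 5 (adjusted p from 0.379 to 0.95). Without day 7 replicate 2 the calls of Uchl1 (adjusted p = 0.0926) and 8430408G22Rik (0.206) were lost, and without replicate 1 that of Pde4b (0.0694), which was also lost with 1 marker more per gate (0.0921). In the identity and flow list 3 of 28 genes rose and 5 fell. The fatty acid-binding protein Fabp4 (811, 1721 and 3307 CPM, 1.64 ± 0.33, adjusted p = 0.000316), the surface sialomucin Cd34 (149, 299 and 514 CPM, 1.49 ± 0.35, adjusted p = 0.0037) and Igfbp3, a binder of insulin-like growth factors (434, 1085 and 1197 CPM, 1.40 ± 0.35, adjusted p = 0.00681), rose. Ly6c1, the most abundant member that did not pass, stood at 1927, 1472 and 2602 CPM.

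Calca, which encodes calcitonin gene-related peptide, fell by 4.44 ± 0.52, from 233 to 6.24 and 12.1 CPM (adjusted p = 2.02e-09), in every alternative tested. Sost, the secreted Wnt inhibitor sclerostin, went from 50 UMIs in 31 control cells to 2 and 0 UMIs (124, 12.5 and 0 CPM, adjusted p = 2.24e-06), a ratio of 0.0281 (95% counting interval 0.00331 to 0.107). The sodium channel-like gene Scn7a (96.7, 0 and 7.24 CPM, adjusted p = 0.000123) fell to 3 UMIs over both day 7 libraries, a ratio of 0.054 (95% counting interval 0.0107 to 0.17). The corepressor Runx1t1 (49.6, 6.24 and 0 CPM, adjusted p = 0.00559) fell to 1 UMI, a ratio of 0.0351 (95% counting interval 0.000846 to 0.219). The collagen cross-linking enzyme Lox fell less securely (52.1, 6.24 and 2.41 CPM, adjusted p = 0.0463). It lost its call without day 7 replicate 2 (adjusted p = 0.325), replicates 1 and 2 of day 11 (0.137 and 0.0672) or replicate 1 of day 14 (0.0915), and without the barcodes of highest Scrublet scores (0.0646). Without day 7 replicate 2 the calls of Sost (0.0612; up to 1 over the alternatives, with DESeq2) and Runx1t1 (0.25) were lost too. Ehd3, an endocytic protein enriched in glomerular endothelium, was counted with the gate's own markers, which chose the cells, and is not tested. Its levels under the stricter gate were 2356, 828 and 776 CPM. Under the original gate Ehd3 was detected in 60.9% of control and 42.2% and 43.0% of day 7 endothelial-like barcodes, and Plvap, which marks fenestrated vessels outside the glomerulus, in 17.4%, 14.7% and 35.9%, against 3.85% to 5.26% and 0.999% to 1.41% of all other barcodes. Fewer glomerular endothelial cells and less RNA per cell cannot be told apart. Lipoprotein lipase (Lpl) also fell (191, 31.2 and 29 CPM, -2.67 ± 0.41, adjusted p = 1.59e-06), and its level in the other barcodes was higher and moved the same way (1074, 211 and 237 CPM).

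Of 25 measured heat shock and immediate early genes, 10 fell in day 7 endothelial-like cells, 15 did not pass and none rose, under both gates. The inducible chaperones Hspa1b (154, 18.7 and 9.66 CPM, -3.60 ± 0.49, adjusted p = 1.08e-07) and Hspa1a (339.8, 99.8 and 106 CPM, -1.71 ± 0.34, adjusted p = 0.000253) and the transcription factor Atf3 (563, 99.8 and 152 CPM, -2.09 ± 0.32, adjusted p = 1.59e-06) fell. Jun, the most abundant of the list, stood at 3468, 3211 and 3703 CPM and did not pass (adjusted p = 0.999). MHC class I and immunoproteasome genes rose in 5 of 18, under both gates. Leading members were H2-Q7 (59.5, 262 and 323 CPM, 2.31 ± 0.42, adjusted p = 7.15e-05) and H2-K1 (526, 1634 and 1743 CPM, 1.68 ± 0.32, adjusted p = 0.000145), which belong to a family of near-identical genes whose reads may be split between members. None of 19 cell cycle genes and none of 37 respiratory chain genes was called. DESeq2 called 64 genes in this class and edgeR 195 without day 7 replicate 2, against 338 in all.

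Stromal-like cells, a class that pools fibroblasts with the mural and renin-producing cells of vessels, held more RNA of fibrillar collagen chains at day 7 and less of 4 smooth muscle contractile genes. Of 4663 genes tested, 245 rose (5.25%) and 231 fell (4.95%). In the matrix and myofibroblast list 6 of 27 measured genes (35 listed) rose and 5 fell. Col3a1, a fibrillar collagen chain, stood at 163 CPM in the control and 2876 and 1358 CPM at day 7 (3.67 ± 0.67, adjusted p = 4.75e-05). Fibronectin (Fn1) rose by 3.34 ± 0.71 (19, 239 and 176 CPM, adjusted p = 0.000586), and Timp1, an inhibitor of matrix metalloproteinases, went from no UMI to 119 and 166 CPM (at least 14-fold, adjusted p = 1.62e-05). The other 3 risers, chosen for naming after their values were seen, were Col1a1 (83.5, 680.3 and 466 CPM, 2.73 ± 0.63, adjusted p = 0.00166), its partner chain Col1a2 (899, 6147 and 2624 CPM, 2.28 ± 0.52, adjusted p = 0.00149) and matrix Gla protein, Mgp (717, 5407 and 6985 CPM, 3.11 ± 0.62, adjusted p = 0.000202). The fallers were of another kind. Ctgf, a matricellular growth factor, fell by 3.12 ± 0.40 (2182, 191 and 288 CPM, adjusted p = 2.95e-08). The 4 smooth muscle contractile genes Tagln (2402, 525 and 565 CPM, -2.13 ± 0.38, adjusted p = 3.87e-05), Myl9 (2075, 656 and 491 CPM, -1.88 ± 0.39, adjusted p = 0.000372), Tpm2 (1795, 668 and 522 CPM, -1.61 ± 0.39, adjusted p = 0.00249) and Acta2 (2937, 1194 and 1109 CPM, -1.35 ± 0.37, adjusted p = 0.00986), also named after their values were seen, were lower in both day 7 libraries. Under the stricter gate the 6 risers and Ctgf, Tagln and Myl9 kept their calls, and Acta2 (-1.44 ± 0.50, adjusted p = 0.0822) and Tpm2 (-1.61 ± 0.55, adjusted p = 0.0731) did not pass.

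A UMI of the fibroblast markers Pdgfra, Dcn or Lum was found in 13.8% of control and 20.3% and 30.4% of day 7 stromal-like barcodes, against 0.561% to 1.24% of all other barcodes. A UMI of Myh11, a smooth muscle myosin, was found in 37.5%, 28.8% and 22.3%, against 0.559% to 0.955% of the others. A UMI of the mural markers Rgs5, Notch3 or Cspg4 was found in 69.7%, 77.97% and 70.9%, against 3.34%, 10.2% and 10.7% of the others. The fibroblast and mural sets hold markers of the gate itself, which chose the cells. Their shares, in the class and outside it, therefore follow in part from the gate and are not tested. Macrophage genes summed to 1049.6, 6688 and 3776 CPM and tubular injury genes to 2886, 14898 and 22596 CPM inside the class, and Fn1 stood at 1.44, 57.5 and 89.2 CPM in the other barcodes; their part in the matrix changes was not tested. A shift between these cells and a change within them cannot be told apart. Among genes named by the rule, the basement membrane collagen Col15a1 (203 and 119 CPM at day 7, adjusted p = 2.06e-05) and the chemokine Cxcl14 (143 and 198 CPM, adjusted p = 8.19e-06) had no UMI in the control and were at least 11.5-fold and 16.7-fold higher. The epithelial keratin Krt20 was also called higher, with 93.3% of its UMIs in day 7 replicate 1 from 1 cell, as was the transcript RP23-103I12.13 (adjusted p = 0.0219), which lost its call without day 7 replicate 1 (0.0812) and under stricter gates (up to 0.154). DESeq2 did not call Cxcl14 (adjusted p = 0.923) or Timp1 (0.451). Cxcl13, a chemokine for B cells, fell from 108 UMIs in 25 control cells to 1 UMI in each day 7 library (409.8, 11.9 and 1.96 CPM, adjusted p = 1.17e-09), a ratio of 0.0082 (95% counting interval 0.000981 to 0.0304). The centrosomal gene Cep112 fell by 4.44 ± 0.53 (543, 11.9 and 27.4 CPM, adjusted p = 4.36e-09). Both held in every alternative tested. The haemoglobin genes Hbb-bt, Hbb-bs and Hba-a2 were called lower, with 99.5% to 100% of their control UMIs in 1 cell. Single libraries weighed on the count: 823 genes were called without day 7 replicate 1 and 169 without replicate 2, against 476 in all, and DESeq2 called 85.

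**Figure D2:**
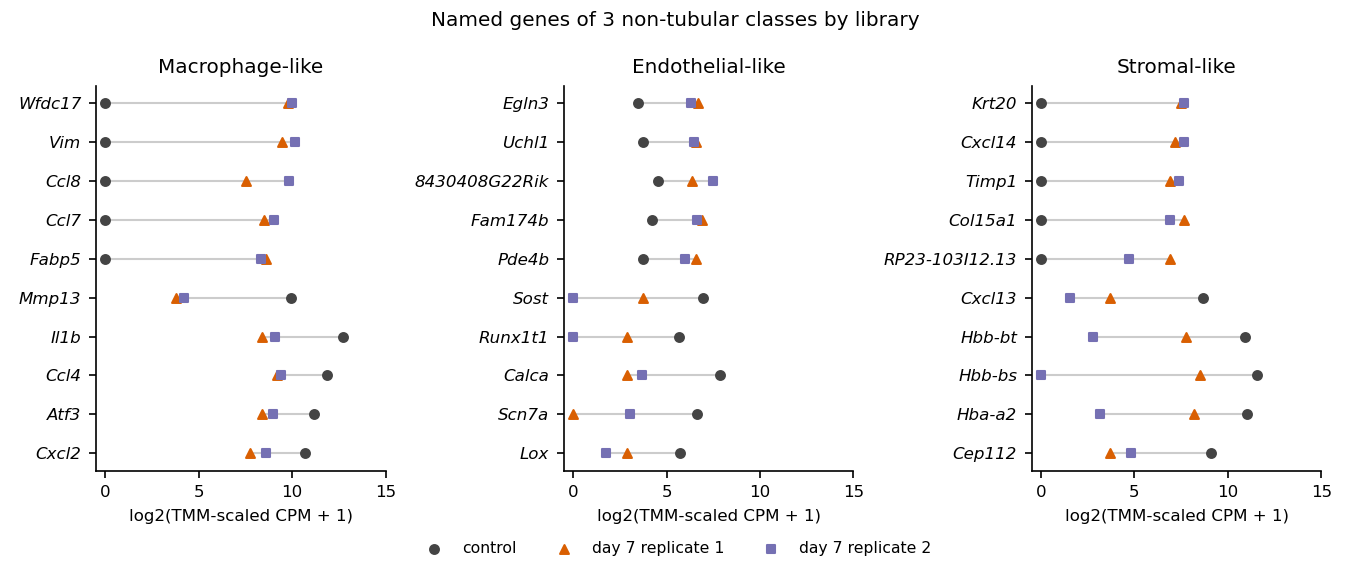
Levels of the genes named by the rule in macrophage-like, endothelial-like and stromal-like sums (horizontal axis, log2 of TMM-scaled CPM plus 1; 1 symbol per library). In macrophage-like cells Il1b falls from 6735 CPM to 332 and 543 CPM and Wfdc17 rises from no UMI to 861 and 1000.2 CPM, with the day 7 libraries close together.

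The pseudocount of 1 in this plot only serves to draw levels of 0 and enters no test. The plot of non-tubular genes shows the day 7 symbols on the same side of the control for every gene, as the call requires. The widest gaps between the day 7 libraries lie at the haemoglobin genes in stromal-like sums and, among the risers, at Ccl8 and RP23-103I12.13.

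In podocyte-like barcodes the result depended on the gate. With at least 2 markers of a set that includes Nphs1, Wt1, Synpo, Ptpro, Thsd7a and Clic3 (66, 24 and 48 barcodes), 209 of 3420 genes rose (6.11%) and 227 fell (6.64%), and 15 of 25 measured podocyte function genes fell with none rising (median -1.45). Under the stricter gate (74, 18 and 40 barcodes), 28 of 3321 genes rose (0.843%) and 69 fell (2.08%), and none of 26 function genes was called in either direction (median 0.01), although 97 genes were called over the whole table. Nestin (Nes), an intermediate filament of podocytes, stood at 3661, 793 and 811 CPM under the first gate (-2.19 ± 0.35, adjusted p = 3.48e-08) and at 3182, 1899.8 and 1914 CPM under the stricter one (-0.74 ± 0.38, adjusted p = 0.523). Podocalyxin (Podxl), the sialoglycoprotein of foot processes, stood at 3176, 827 and 1455 CPM (-1.45 ± 0.35, adjusted p = 0.000605) and then at 2915, 2643 and 3749 CPM (0.15 ± 0.38, adjusted p = 0.961). The cell cycle inhibitor Cdkn1c, the most abundant function gene, stood at 11317, 10201 and 15826 CPM under the stricter gate (0.21 ± 0.38, adjusted p = 0.943). At day 7 33.3% and 22.9% of the barcodes in the first gate held only the minimum of 2 markers, against 6.06% in the control.

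Of 363 calls of the first gate tested under the stricter one, 67 were called there on the same side. Acpp, an acid phosphatase, stood at 405 CPM in the control and 33.7 and 25.7 CPM at day 7 (-3.79 ± 0.60, adjusted p = 1.91e-08; -2.47 ± 0.60, adjusted p = 0.00236 under the stricter gate). Wif1, a secreted Wnt inhibitor (585, 50.6 and 70.8 CPM, -3.16 ± 0.47, adjusted p = 2.07e-09; -1.68 ± 0.51, adjusted p = 0.031), also fell. The phosphatidate phosphatase Lpin2 (1187, 118 and 167 CPM, -2.97 ± 0.40, adjusted p = 1.18e-11; -1.70 ± 0.42, adjusted p = 0.00297) fell too, with changes nearer to 0 under the stricter gate. Sema3g, a secreted semaphorin of podocytes, fell under the first gate (2924, 472 and 373 CPM, -2.82 ± 0.37, adjusted p = 3.57e-12). It did not pass under the stricter gate (2476, 1280.3 and 925 CPM, -1.20 ± 0.39, adjusted p = 0.0612), nor did Cep85l, called under the first (adjusted p = 0.00535 and 0.745). The leading risers, the cell cycle inhibitor Cdkn1a (no UMI in the control, 489 and 753 CPM at day 7), the Notch ligand Jag1, Bst1, Srd5a1 and I830012O16Rik, were seen in 3 to 8 cells of a day 7 library. Tubular injury genes summed to 3189, 20178 and 22279.5 CPM and macrophage genes to 349.6, 3686 and 1292 CPM in the class under the first gate, and Bst1 and Srd5a1 were among the leading genes of tubular barcodes of no segment in at least 1 library; their part in these calls was not tested. Jag1 lost its call without day 7 replicate 2 (adjusted p = 0.0511), and 74.4% of the Cdkn1a UMIs of replicate 2 came from 1 cell. Cdkn1a did not pass under the stricter gate (0, 124 and 15.7 CPM, adjusted p = 0.645, over the alternatives 9.16e-15 to 0.645), I830012O16Rik was not called, and the other 3 had too few counts to be tested.

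**Figure D3:**
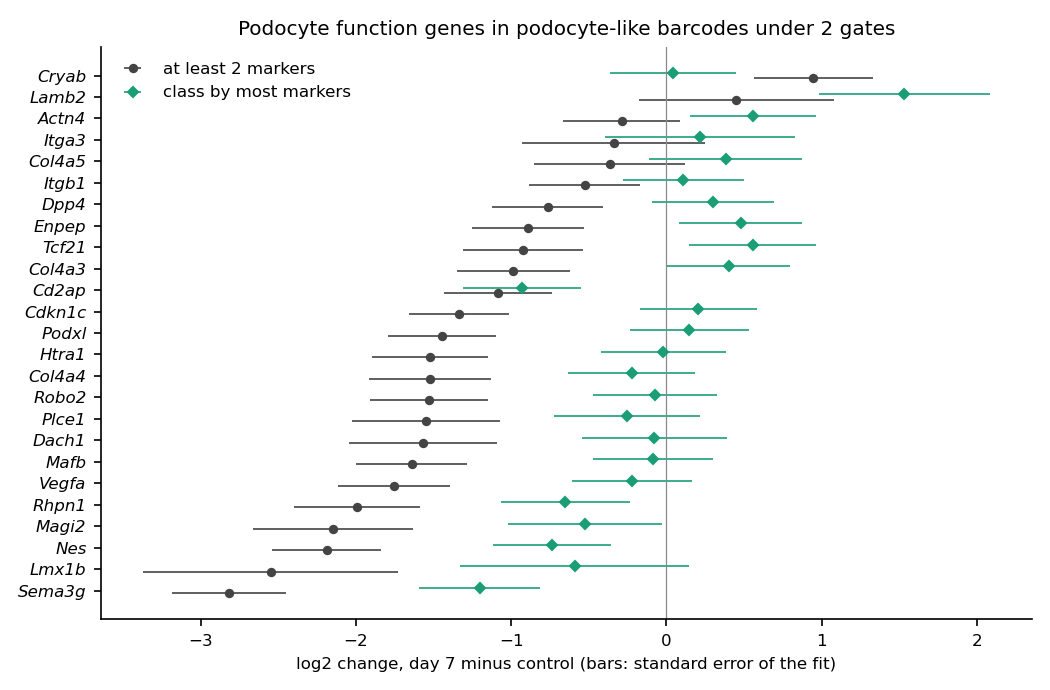
Log2 change at day 7 against the control (horizontal axis; bars, standard error of the fit) of podocyte function genes (vertical axis) in podocyte-like barcodes under the original gate (circles) and the stricter gate (diamonds). Podxl moves from -1.45 to 0.15 and Nes from -2.19 to -0.74 between the gates.

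The plot of podocyte genes under both gates shows the circles left of the diamonds for most genes. DESeq2 called 100 genes under the first gate and edgeR called 72 with 1 marker more, against 436.

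Thick ascending limb-like cells, which reabsorb salt and make uromodulin and epidermal growth factor, changed in many genes: of 11748 tested, 1223 rose (10.4%) and 1496 fell (12.7%). Egf, the precursor of epidermal growth factor, stood at 5107 CPM in the control and 96.1 and 403 CPM at day 7 and fell by 4.31 ± 0.44 (adjusted p = 3.3e-06). It had UMIs in 712 of 907 control cells and in 19 of 222 and 77 of 316 day 7 cells. Wfdc15b, a secreted whey acidic protein-domain gene of this segment, fell by 3.55 ± 0.35 (3697, 172 and 445 CPM, adjusted p = 2.17e-06). Nccrp1 went from 297 UMIs in 148 control cells to none at day 7, at least 54.6-fold lower (adjusted p = 1.08e-05). Gm12326 went from 102 UMIs to 1 (28.5, 0 and 0.747 CPM, adjusted p = 8.81e-05), a ratio of 0.0178 (95% counting interval 0.000446 to 0.101). Metallothionein-3 (Mt3, at least 9-fold lower) and 2310042D19Rik (at least 8.45-fold lower) also had no UMI at day 7, and both lost their call without day 7 replicate 2 (adjusted p = 0.0568 and 0.065, the highest over their alternatives), 2310042D19Rik also with DESeq2 (0.0598). In the thick limb function list 8 of 24 genes fell and 1 rose (median -0.29), the lone riser being a smaller share than the 10.4% of all genes called higher. The transcription factor Irx3 rose (28.5, 88.2 and 58.3 CPM, 1.32 ± 0.32, adjusted p = 0.00632). The sodium pump subunit Atp1b1 (4905, 3579 and 3397 CPM, -0.49 ± 0.20, adjusted p = 0.0939) did not pass. Under the stricter gate 9 of 24 fell, Atp1b1 among them (-0.74 ± 0.18, adjusted p = 0.00971), of 11852 genes tested with 8.86% called higher and 10.6% lower.

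Leading risers of the class included genes of a chemokine, a caspase and a syndecan. Cxcl17, a mucosal chemokine, stood at 1.12 CPM in the control and 53.5 and 108 CPM at day 7 (6.13 ± 0.60, adjusted p = 2.01e-06), with UMIs in 4 control cells and in 28 and 71 day 7 cells. Casp12, an endoplasmic reticulum caspase, rose by 4.90 ± 0.54 (1.68, 45.7 and 57.5 CPM, adjusted p = 6.75e-06) and syndecan-1 (Sdc1), a heparan sulfate proteoglycan, by 3.71 ± 0.35 (7.82, 86.6 and 117 CPM, adjusted p = 1.74e-06). The sodium phosphate cotransporter Slc34a2 (10.9, 89.8 and 78.5 CPM, 2.93 ± 0.36, adjusted p = 1.84e-05) and the GABA receptor subunit Gabrp (4.19, 59.8 and 29.1 CPM, 3.30 ± 0.57, adjusted p = 0.000559) rose as well. All 5 risers were called in every alternative tested, but 83.3% of the 6 control UMIs of Casp12 and 93.3% of the 15 of Gabrp came from 1 cell. Under the stricter gate the changes were 7.59 for Casp12, 7.56 for Gabrp and 2.02 for Slc34a2. Of 32 measured tubular injury genes (33 listed) 30 rose and none fell, with a median of 3.82 (3.62 with genes at 0 at their bound) against 0.04 over all genes. The phosphatidylserine receptor Havcr1 (Kim-1) went from 1.12 to 339 and 84.4 CPM (7.40 ± 0.87, adjusted p = 1.26e-05) and annexin A3 (Anxa3) from 2 UMIs to 157 and 77.7 CPM, a ratio of 185 (95% counting interval 50.6 to 1538), adjusted p = 5.35e-07. Havcr1 was higher in the other day 7 barcodes (1.41, 762 and 397 CPM), and Anxa3 stood there at 7.36, 177 and 172 CPM; the part of free RNA in this list was not tested.

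All 37 nuclear genes of the respiratory chain fell in thick ascending limb-like cells, under both gates, with a median of -1.36 and -1.42 under the stricter gate. Neither gate removed barcodes with proximal markers. Of the class, 48.2% of control and 5.86% and 3.16% of day 7 barcodes held 3 or more. Under the stricter gate the shares were 30.7%, 2.4% and 0.408%. The part of proximal RNA in this list was not tested. Cytochrome c (Cycs) stood at 774, 183 and 186 CPM (-2.07 ± 0.22, adjusted p = 3.84e-06). The complex III subunit Uqcr11 stood at 1130.3, 277 and 359 CPM (-1.82 ± 0.22, adjusted p = 1.59e-05) and the ATP synthase subunit Atp5e at 1583, 436 and 551 CPM (-1.68 ± 0.21, adjusted p = 2.65e-05). The median share of UMIs from mt- genes in the class, which entered the choice of barcodes, was 32.1% in the control and 4.82% and 5.64% at day 7. Cell cycle genes moved the other way: 23 of 30 rose and none fell (median 4.18, or 2.99 with bounds). Nusap1, a spindle protein, had no UMI in the control and stood at 18.9 and 30.6 CPM at day 7 (at least 32.1-fold, adjusted p = 6.72e-05). Topoisomerase Top2a, under the stricter gate, stood at 0.6, 38.6 and 49.6 CPM, a ratio of 77.7 (95% counting interval 26 to 382). Top2a was higher in the other day 7 barcodes (14.8, 145 and 99.4 CPM without TMM scaling). Nusap1 stood there at 5.55, 47.9 and 33.2 CPM, also without scaling, which does not place replicate 2 above or below the class. MHC class I and immunoproteasome genes rose in 14 of 17, interferon-stimulated genes in 17 of 33, and none of either list fell; macrophage genes summed to 311, 3936 and 2031 CPM inside the class, and their part in these lists was not tested. H2-K1 stood at 97.5, 770.01 and 681 CPM (2.89 ± 0.37, adjusted p = 2.92e-05). Among 22 glycolysis and hypoxia genes 7 fell and 2 rose, the risers being a smaller share than the 10.4% of all genes called higher. Vascular endothelial growth factor (Vegfa) fell by 2.37 ± 0.27 (148, 31.5 and 26.9 CPM, adjusted p = 8.34e-06), and hexokinase 2 (Hk2) rose from no UMI to 20.5 and 14.9 CPM (at least 19.96-fold, adjusted p = 0.000184). DESeq2 called 1166 genes in this class, against 2719.

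In the distal convoluted tubule class, 519 control barcodes passed both this gate and that of the thick ascending limb and were set aside, and those that remained held a median of 6 proximal markers. With that gate (220, 36 and 74 barcodes) 718 of 9123 genes rose (7.87%) and 1030 fell (11.3%). The values below come from the stricter gate (351, 23 and 37 barcodes, with a median of 2, 0 and 0 proximal markers). There 329 of 8090 genes rose (4.07%) and 382 fell (4.72%), 8.79% in either direction. Of 1534 calls of the first gate tested there, 500 were called on the same side. Of 20 measured function genes (22 listed) 10 fell and 1 rose, and 6 of 22 fell and 1 rose under the first gate. The lone riser is near the 4.07% of all genes called higher, and under the 7.87% of the first gate. S100g, the calcium carrier calbindin-D9k, stood at 10886, 442 and 3047 CPM (-2.64 ± 0.63, adjusted p = 0.014), the day 7 libraries differing widely, and the transporter gene Abca13 at 268, 8.33 and 34.2 CPM (-3.61 ± 0.40, adjusted p = 2.9e-05). Egf fell here as well (5124, 62.5 and 369 CPM, -4.55 ± 0.49, adjusted p = 2.39e-05), as did the transcript Gm15241 (229, 8.33 and 11.4 CPM, -4.50 ± 0.46, adjusted p = 1.39e-05). Vpreb1 (72 UMIs in 56 control cells) and Asb11 (47 UMIs in 34) had none at day 7, at least 6.15-fold and 4.01-fold lower (adjusted p = 0.00457 and 0.0134). The potassium channel Kcnj16 (627, 621 and 578 CPM) and the membrane protein Tmem52b (3068, 3255 and 3568 CPM) did not pass (adjusted p = 0.92 and 0.814).

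Among the leading risers of the distal convoluted tubule-like class were Il1f6 and Cxcl17. Il1f6, the interleukin-36 alpha gene, went from no UMI to 150.02 and 87.5 CPM (at least 76.8-fold, adjusted p = 3.88e-06), with UMIs in 6 and 5 cells, and was called in every alternative tested. Cxcl17 went from no UMI to 150.02 and 64.7 CPM (at least 69-fold, adjusted p = 6.11e-05, 13 and 9 cells) and the protease inhibitor Serpina3n to 100.01 and 45.6 CPM (at least 46.8-fold, adjusted p = 0.000127). The chemokine Ccl20 was called higher from 2 cells and 1 cell only, and Epb4.1l3, a membrane skeleton gene, rose by 3.48 ± 0.47 (9.68, 150.02 and 72.3 CPM, adjusted p = 0.000158). Igkc, an antibody gene, was called lower with 85.8% of its control UMIs in 1 cell. Of 31 measured injury genes 22 rose and none fell. Their leader was the siderophore-binding lipocalin Lcn2, with no UMI in 351 control barcodes and 1900.2 and 1274 CPM at day 7 (at least 1029-fold, adjusted p = 3.4e-06; 3.23, 1001 and 928 CPM in the other barcodes). Respiratory chain genes fell in 13 of 37 (median -0.86; 27 of 37 under the first gate) and none rose. Under the first gate the named risers were Il1f6, Ccl20, Cxcl10, Fgg and Cxcl1, and the named fallers Akr1c18, Bcat1, Tex21, Scd1 and Gm15241, of which the first 4 had too few counts to be tested under the stricter gate. Without day 7 replicate 2 those 4 lost their calls (adjusted p = 0.093, 0.0904, 0.181 and 0.192), and Tex21 also without replicate 1 or 2 of day 14 (0.0768 and 0.0814). Of the risers, Cxcl10 was not called with DESeq2 (adjusted p = 0.143), with 81.8% of its UMIs in replicate 2 from 1 cell and a change of 4.13 under the stricter gate against 9.79. Fgg was not called with 1 marker more per gate. Its change there was 8.30 ± 1.66 (edgeR, adjusted p = 0.0101), but not both day 7 libraries lay above the control. The count of 1748 calls under that gate was 944 without day 7 replicate 2 and 1132 without replicate 2 of day 14.

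Principal cell-like cells of the collecting duct held more RNA of Sprr2f, Sprr2g, Sfn and the keratins Krt18 and Krt19 at day 7. Of 11483 genes tested, 843 rose (7.34%) and 1207 fell (10.5%). The small proline-rich genes Sprr2f and Sprr2g, which belong to the cornified envelope family, had no UMI in the control. Sprr2f stood at 493 and 319 CPM (at least 97.9-fold, adjusted p = 1.05e-07, 117 and 91 cells) and Sprr2g at 136 and 75.3 CPM (at least 25.1-fold, adjusted p = 1.17e-05). They are close copies, and reads may be split between them. Oit1 (107 and 95.5 CPM, at least 25.3-fold, adjusted p = 5.27e-06) and Sfn, the epithelial 14-3-3 sigma protein (122 and 55.1 CPM, at least 20.6-fold, adjusted p = 0.000597), were likewise without a UMI in the control. The calcium channel Trpv5 had none either and stood at 69.8 and 59.2 CPM (at least 16-fold, adjusted p = 8.45e-06), while under the stricter gate its control level was 19.8 CPM and the change 1.89 ± 0.42, adjusted p = 0.00337. Keratin 19 (Krt19) rose from 2 UMIs to 216 and 305 CPM, a ratio of 103 (95% counting interval 28.3 to 849.9), adjusted p = 4.45e-06, and keratin 18 (Krt18) by 3.03 ± 0.36 (119, 1207 and 736 CPM, adjusted p = 3.93e-06). The transcription factor Elf5 (2.63, 42.6 and 15.3 CPM, adjusted p = 0.0132) and the aldosterone-induced kinase Sgk1 (14.5, 36 and 94.8 CPM, 2.21 ± 0.58, adjusted p = 0.0115) also rose, Elf5 with a ratio of 9.85 (95% counting interval 2.61 to 83.2).

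The function list of 21 measured principal cell genes (22 listed) held 5 risers and no faller under the first gate, and 5 risers and 6 fallers under the stricter one (median 0.23 and -0.41). Stanniocalcin-1 (Stc1), a secreted calcium and phosphate regulator, stood at 296, 85.1 and 79.5 CPM under the stricter gate (-1.85 ± 0.27, adjusted p = 2.88e-05) and at 92.2, 65.5 and 65.5 CPM under the first (-0.49 ± 0.33, adjusted p = 0.345). The kinase Wnk1 stood at 200.1, 68.3 and 59.3 CPM (-1.66 ± 0.28, adjusted p = 0.000173) and 58, 69.8 and 66.2 CPM (0.23 ± 0.32, adjusted p = 0.684). Their control levels differed more between the gates than their day 7 levels. Nephronectin (Npnt) did not pass under either gate (448, 797 and 542 CPM, 0.58 ± 0.33, adjusted p = 0.255). The transcription factor Tfcp2l1 was called lower only under the stricter one (863, 445 and 429 CPM, -0.98 ± 0.24, adjusted p = 0.00714). The transcript BC018473 went from 464 UMIs in 109 control cells to 1 UMI (611, 1.09 and 0 CPM, adjusted p = 2.26e-09), a ratio of 0.000696 (95% counting interval 1.76e-05 to 0.0039). The complement gene C8a went from 23 UMIs to none (at least 23.7-fold lower, adjusted p = 0.00057). The other named fallers, Nr1h3, A830010M20Rik and Polr3g, lost their calls under the stricter gate (adjusted p = 0.09, 0.117 and 0.164; up to 0.09, 0.146 and 0.21 over the alternatives). So did A830010M20Rik without day 7 replicate 1 (0.0662) and Polr3g without replicate 2 (0.102). Injury genes rose in 29 of 32 (median 3.49, or 2.997 with bounds), led by the calcium-binding S100a6 (no UMI in 209 control barcodes, 709 and 633 CPM at day 7), while Lgals3 stood at 606, 564 and 823 CPM and did not pass. Respiratory chain genes fell in 18 of 37 (median -0.79; 9 of 37 under the stricter gate). Cell cycle genes rose in 8 of 29, and MHC class I genes rose in 14 of 17. No member of these 3 lists moved the other way. Proximal genes summed to 51923, 3677 and 4970.1 CPM and macrophage genes to 689.7, 5047 and 2695 CPM inside the class, and their part in the lists was not tested. The stricter gate called 561 of 11367 genes higher (4.94%) and 725 lower (6.38%), and DESeq2 called 987 in all under the first.

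**Figure D4:**
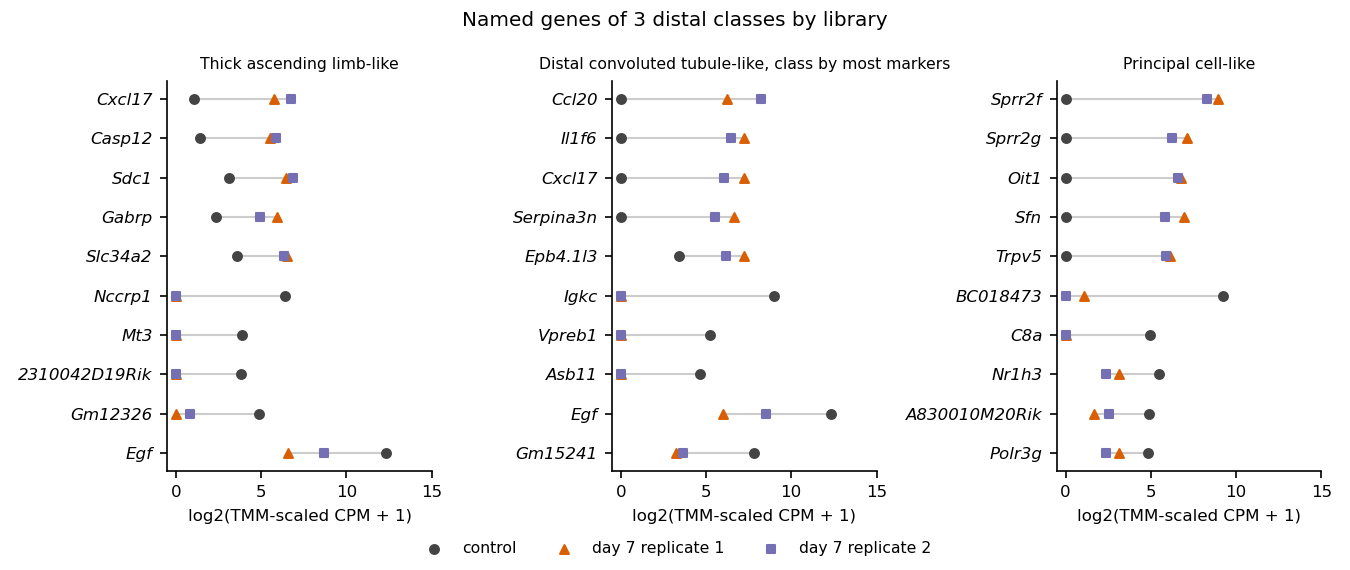
Levels of the genes named by the rule in thick ascending limb-like, distal convoluted tubule-like (stricter gate) and principal cell-like sums (horizontal axis, log2 of TMM-scaled CPM plus 1; 1 symbol per library). Egf falls from 5107 CPM to 96.1 and 403 CPM in thick ascending limb-like cells, and Sprr2f rises from no UMI to 493 and 319 CPM in principal cell-like cells.

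Most symbols at the left edge of the plot of distal genes are control levels of 0 among the risers and day 7 levels of 0 among the fallers. Egf, seen in the thick ascending limb-like and distal convoluted tubule-like panels, was higher in replicate 2 than in replicate 1 in both.

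Intercalated cell-like cells, which secrete acid or base through a proton pump and anion exchangers, gave few calls: of 4003 genes tested, 90 rose (2.25%) and 88 fell (2.2%), 4.45% in either direction, among 103, 58 and 54 barcodes. Scg5, a chaperone of prohormone processing, stood at 12.6 CPM in the control and 129.5 and 242 CPM at day 7, adjusted p = 0.00346, a ratio of 14.8 (95% counting interval 4.7 to 74.9). It stood, under the stricter gate, at 16.1, 149 and 261 CPM (3.72 ± 0.49, adjusted p = 2.26e-06). Phlda1, an early response gene, rose under the first gate (21, 169 and 290.2 CPM, 3.39 ± 0.69, adjusted p = 0.00561) and was not called under the stricter one (0.28 ± 0.38, adjusted p = 0.836). The carbonyl reductase Cbr2 went from 57 UMIs to 0 and 3 (239, 0 and 29 CPM, adjusted p = 0.00185), a ratio of 0.0615 (95% counting interval 0.0123 to 0.189). The peptidase Mme (neprilysin) fell by 2.41 ± 0.39 (605, 119.6 and 106 CPM, adjusted p = 0.00119) and the G protein subunit Gng11 by 2.25 ± 0.46 (307, 59.8 and 67.7 CPM, adjusted p = 0.00577). Bsnd, the barttin subunit of chloride channels, fell by 2.11 ± 0.53 (214, 19.9 and 77.4 CPM, adjusted p = 0.0286). Cox7a1, a cytochrome c oxidase subunit, fell as well (386, 59.8 and 87.1 CPM, -2.38 ± 0.43, adjusted p = 0.00268). DESeq2 called none of these 7 genes, and their highest adjusted p over the alternatives ran from 0.254 for Cbr2 to 0.999 for Bsnd. The call of Bsnd was also lost without day 7 replicate 1 (adjusted p = 0.109) and without replicate 1 of day 11 (0.0558). With at most 25% mitochondrial UMIs the calls of Phlda1 (0.0988), Cbr2 (0.254), Mme (0.0705), Gng11 (0.0557) and Bsnd (0.349) were lost as well.

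Of 18 measured intercalated cell function genes (20 listed) none was called under the first gate, at which 178 genes were called over the table; the median was -0.67. Under the stricter gate (137, 27 and 66 barcodes), which called 129 of 5939 genes higher (2.17%) and 154 lower (2.59%), 4.77% in either direction, 5 of 18 fell and none rose. The anion exchanger Slc26a7 went from 43 UMIs to none (at least 8.47-fold lower, adjusted p = 0.021), and the ammonia transporter Rhcg stood at 438, 268 and 168 CPM (-1.09 ± 0.33, adjusted p = 0.0434). The receptor kinase Kit (212, 59.6 and 95.7 CPM, -1.33 ± 0.38, adjusted p = 0.0312) and the proton pump subunit Atp6v1c2 (662, 189 and 383 CPM, -1.11 ± 0.31, adjusted p = 0.0269) fell. Carbonic anhydrase 2 (Car2) stood at 4201, 3615 and 3209 CPM (-0.30 ± 0.31, adjusted p = 0.75). The class pools acid-secreting and base-secreting cells. A changed mix of the 2 kinds and a change within them cannot be told apart. Injury genes rose in 14 of 26 under the first gate (median 3.56, or 2.34 with bounds), and respiratory chain genes fell in 4 of 37 (median -0.75). The injury list summed to 1947, 24778 and 20869.6 CPM in the class and to 2417, 25433 and 25867 CPM in the other barcodes, and macrophage genes to 191, 10466 and 3255 CPM in the class; the part of free RNA was not tested. Without day 7 replicate 1 the class gave 276 calls and without replicate 2 it gave 447, DESeq2 gave 43, and barcodes with at most 25% mitochondrial UMIs, of which the control held 27, gave 94.

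Set side by side, the classes differed in which lists moved, although differences between classes were not tested and all comparisons share the 3 libraries. Respiratory chain genes fell in 37 of 37 in thick ascending limb-like, 18 in principal cell-like, 4 in intercalated cell-like and 27 each in distal convoluted tubule-like and proximal tubule-like cells. Fewer fell in principal cell-like and distal convoluted tubule-like cells under the stricter gate. The principal cell-like and intercalated cell-like medians given above lay close together. Their control sums held 923555 and 335391 UMIs, and the part of depth in the counts was not tested. In endothelial-like, podocyte-like and macrophage-like cells none of 37 was called, with medians of -0.23, 0.03 and 0.06. In stromal-like cells 1 of 37 rose, a smaller share than the 5.25% of all genes called higher there. Immediate early and heat shock genes fell with none rising in endothelial-like (10 of 25), macrophage-like (8 of 25) and stromal-like sums (4 of 24). In intercalated cell-like sums 3 of 22 fell and none rose. Under the stricter gate 1 rose and 1 fell of 24 there, where 2.17% of all genes were called higher and 2.59% lower. In thick ascending limb-like sums 10 of 25 rose and 6 fell. In principal cell-like sums 6 of 26 fell and 1 rose, and in podocyte-like sums 9 of 23 rose and 1 fell; the lone riser and the lone faller are smaller shares of the list than the 7.34% and 6.64% of all genes called in those directions. In stromal-like cells the orphan nuclear receptor Nr4a1 led the fall (228, 47.7 and 45 CPM, -2.30 ± 0.51, adjusted p = 0.00102). In thick ascending limb-like cells the small chaperone Hspb1 rose by 3.33 ± 0.37 (28.2, 354 and 220.4 CPM, adjusted p = 6.65e-06) while the mitochondrial chaperonin Hspd1 fell by 2.03 ± 0.24 (1007, 288 and 209.97 CPM, adjusted p = 1.27e-05). In podocyte-like sums the stricter gate gave 1 riser and 1 faller of 24, the riser, Junb, being among those of the first gate. Over all genes, 0.843% were called higher and 2.08% lower in that fit.

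Cell cycle genes rose in 23 of 30 in thick ascending limb-like and 8 of 29 in principal cell-like cells, and none was called among 19 in endothelial-like, 11 in macrophage-like and 11 in T and NK cell-like cells. In stromal-like cells 1 of 6 fell, a single gene, where 4.95% of all genes were called lower. Under the first gates, tubular injury genes rose in every class tested and fell in none (1 of 32 fell under the stricter gate, in thick ascending limb-like cells). The non-tubular counts were 8 of 21 in macrophage-like, 15 of 29 in endothelial-like, 17 of 27 in stromal-like, 15 of 24 in podocyte-like (4 of 20 under the stricter gate) and 3 of 12 in T and NK cell-like sums. In macrophage-like sums the whole list came to 905, 9991 and 9850.3 CPM, against 2415, 28476 and 29218 CPM in the other barcodes; the part of free RNA was not tested. Proximal tubule genes summed to 10834, 3179.8 and 2231 CPM in endothelial-like and 20012, 3334 and 3999 CPM in macrophage-like barcodes, lower in both day 7 libraries. In stromal-like barcodes they summed to 7733, 6219 and 8112 CPM, replicate 2 lying above the control, and in tubular barcodes of no segment to 2749, 5114 and 5300.0 CPM, both day 7 libraries lying above it.

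**Figure D5:**
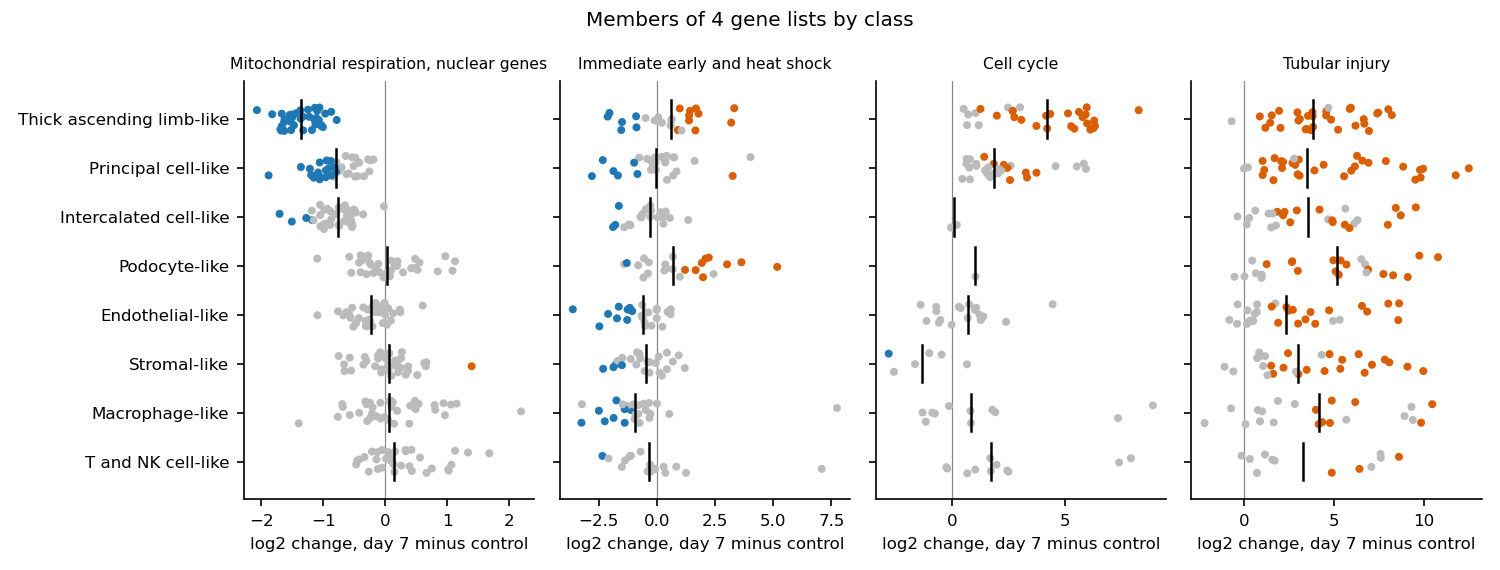
Log2 change at day 7 against the control (horizontal axis) of each measured member of 4 gene lists in 8 classes (vertical axis); orange points were called higher, blue points lower, grey points were not called, and black bars are medians. All 37 respiratory chain genes are blue in thick ascending limb-like cells and grey in endothelial-like and macrophage-like cells, and many points far to the right in the injury and cell cycle panels are fitted values of genes with no UMI in the control, which are no measure of size.

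The plot of lists shows, for the immediate early and heat shock list under the first gates, blue and grey points in the endothelial-like and macrophage-like rows, and points of all 3 colours in the thick ascending limb-like, principal cell-like and podocyte-like rows. Members of a list share cells and pathways, so its points are not independent.

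Proximal tubule-like cells gave the most calls of the classes tested, 2325 of 14262 genes higher (16.3%) and 2471 lower (17.3%). Their leading risers were D630011A20Rik (0, 53.3 and 63.5 CPM, at least 172-fold, adjusted p = 7.19e-06) and the defensin Defb36 (0, 17.8 and 46.5 CPM, at least 108-fold, adjusted p = 5.38e-05). Vcam1 rose too (0.351, 523 and 521 CPM, adjusted p = 3.41e-06), a ratio of 1487 (95% counting interval 508 to 7219). The leading fallers, the synaptoporin gene Synpr, the heparan sulfate sulfotransferase Hs6st2 and Fez1, had 130, 79 and 79 UMIs in the control and none at day 7 (at least 19.7-fold, 12-fold and 12-fold lower; adjusted p = 0.00158, 0.000549 and 0.000968). All 6 were called in every alternative tested.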

How the data were processed

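Drop-seq libraries of mouse kidney cortex were deposited by the authors as tables of UMI counts per gene and barcode; that the values are raw counts was read from the values, which are whole numbers of differing totals. Bowtie2 2.2.7 and mm10 appear in the submitters' processing notes, with no role given. The 3 libraries held 31632205, 7091848 and 16334141 UMIs in all their deposited barcodes, and genes with no line in a table were taken as 0.

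Barcodes were gated by distinct markers and summed per class and library with Python 3.11.15. The sums were tested with edgeR 4.0.16 in R 4.3.3 (quasi-likelihood test, TMM, edgeR's filter on low counts, Benjamini-Hochberg adjustment), with 1 term per day over the libraries with at least 15 barcodes of the class; the lone control has no replicate check of its own. The podocyte-like fit held 9 libraries and the T and NK cell-like fit 8, the others 10. The procedure was tested on simulated data. Intervals are exact at 95% and cover counting error only.

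The leading genes of each class and direction are the 5 (3 in proximal tubule-like cells) with the largest log2 change among called genes that are neither gate markers nor mitochondrial, lie at least 2-fold from the control in both day 7 libraries, exceed the other barcodes 2 times, and have at least 10 UMIs in each day 7 library (risers) or 20 in the control (fallers). From each list, up to 4 called members with the largest change and up to 2 uncalled ones with the highest level were named; a few genes of the gates and lists are not reported here by name. Members and lists were chosen with earlier results of these data known. The stricter gate, which gives a barcode with 1 marker more than the minimum to the class that leads every other by at least 2 markers, proximal and unsegmented tubule apart, was added after seeing the data. Alternatives were DESeq2 1.42.0, other scaling and filters, fewer libraries, 25% mitochondrial UMIs, 1 marker more per gate, thinning and doublet removal. Scrublet (scanpy 1.11.5) marked at most 0.111% of a library by its own threshold, which was not used; barcodes that passed several gates were set aside, and removing the highest 5% of scores was an alternative. Tubular barcodes of no segment, B cell-like and neutrophil-like barcodes were too few in the control to be tested under the first gate; with 1 marker more, or the stricter gate, the tubular ones could be fitted, with 141 genes higher and 126 lower of 7722.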

Additional observations from a re-analysis of the deposited data

How the results depend on the processing

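With 14 alternatives for most classes, 47 of the 89 genes named under the first gates were called in every alternative in which they were tested, 65 of the 77 tested under the stricter gate were called there, and none was called in the opposite direction. Genes named under the stricter gate alone were not tried in the other alternatives. No paired analysis was possible because the control has 1 library. Every alternative used that library, so none shows how far the calls depend on it. The named genes were also chosen for being called in the main fit. Without a day 7 replicate the remaining one is assumed to vary as the other days do, and in T and NK cell-like cells those fits left no test. Where counts moved by over 1.5 times the cause was not tested. DESeq2 called 1166 genes in thick ascending limb-like, 708 in distal convoluted tubule-like, 987 in principal cell-like, 43 in intercalated cell-like, 100 in podocyte-like, 64 in endothelial-like, 85 in stromal-like and 8 in T and NK cell-like cells. With 1 marker more per gate, 778 genes were called in distal convoluted tubule-like, 273 in intercalated cell-like, 72 in podocyte-like, 183 in stromal-like, 61 in macrophage-like and 0 in T and NK cell-like cells, the last with edgeR and 246 genes at an unadjusted p under 0.05. The stricter gate gave 711, 1286, 283, 97, 129 and 67 calls in distal convoluted tubule-like, principal cell-like, intercalated cell-like, podocyte-like, stromal-like and macrophage-like cells. The 3 libraries alone gave 962 calls in distal convoluted tubule-like and 67 in T and NK cell-like cells, no filter on low counts 304 and at most 25% mitochondrial UMIs 94 in intercalated cell-like cells, and removal of high Scrublet scores 83 in T and NK cell-like cells. Leaving out 1 library at a time gave 944 to 2238 calls in distal convoluted tubule-like, 142 to 447 in intercalated cell-like, 195 to 351 in endothelial-like and 169 to 823 in stromal-like cells.

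Day 7 minus control shares, in percentage points, moved by more than the SD of the day 7 libraries or changed sign as follows. Thinning gave -7.94 in thick ascending limb-like, -4.19 in distal convoluted tubule-like, -0.513 in podocyte-like, -0.0465 in endothelial-like, 16.7 in macrophage-like and -50.5 in proximal tubule-like barcodes. At most 25% mitochondrial UMIs gave -2.01 in thick ascending limb-like, 0.499 in intercalated cell-like, -0.982 in podocyte-like, -2.92 in endothelial-like, -1.72 in stromal-like and -43.3 in proximal tubule-like barcodes. With 1 marker more per gate the differences were -7.11, -4.46, 4.48, -0.748, -0.556, -0.475 and -49.6 in thick ascending limb-like, distal convoluted tubule-like, principal cell-like, intercalated cell-like, podocyte-like, endothelial-like and proximal tubule-like barcodes, and under the stricter gate -7.64, -5.05, 4.002, -1.22, -0.570, -0.443 and -49.6 in the same order. Removal of high Scrublet scores gave -7.84 in thick ascending limb-like, -0.0742 in endothelial-like and -41.8 in proximal tubule-like barcodes. The endothelial-like differences changed sign in each of these, all but that at 25% mitochondrial UMIs by less than the SD of 1.44, and the sign changed for intercalated cell-like shares at 25% mitochondrial UMIs, and with 1 day 7 library left out the endothelial-like and stromal-like differences ran from -1.003 to 1.03 and from -0.849 to 0.394, around 0.0150 and -0.228 with both.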

Other observations

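Some barcodes belonged to no comparison of gene levels. B cell-like barcodes, gated on genes of the antigen receptor complex and other B cell markers, numbered 8 in the control (0.130%, exact 95% Clopper-Pearson interval 0.0563% to 0.257%) and 1 in each day 7 library. Neutrophil-like barcodes, gated on genes such as Csf3r, the receptor of the granulocyte growth factor, and Retnlg, numbered 0 of 6134 in the control, with an upper limit of 0.0601%, and 5 and 3 in day 7 replicates 1 and 2 (0.138% and 0.0582%). Barcodes that passed no gate were 1.27% of the control (78) and 15.7% and 9.12% of the day 7 libraries (567 and 470).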
